A study of Mus musculus with 2 samples.

Results

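Hgf, Fgf2, Fgf7, Pdgfa, Pgf, Sema3c and Egfr are 6 genes for secreted growth and guidance factors and 1 for a growth factor receptor. They were chosen by the authors' table that pairs called YTHDF2 peaks with genes, in which each is listed. That table names 1285 genes, of which these are 7, and it holds 8 of their peaks. All peaks of the final peak list that overlap the 7 gene bodies on mm10 were added, which gave 25 of the 9271 peaks of the series. Presence in the table chose the genes, so the enrichment of the 8 listed peaks is given as a description, with no test.

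The data come from RNA immunoprecipitation followed by sequencing (RIP-seq), which asks which RNAs, and which stretches of them, a protein holds. The material was wild-type C2C12, a mouse myoblast line that fuses into myotubes, kept for 4 to 5 days in 2% horse serum and given no further treatment. There was 1 library pulled down with an antibody to YTHDF2 and 1 input library, both labelled batch 1 and sequenced as 150 bp pairs. The IgG control that the design names was not analysed here, and the library steps are described in terms of DNA, so a contribution of DNA to either library was not tested. The peak list gives no level for genes without a peak, so the myotube label could not be checked: 1 of 18 muscle markers (Neb) and 0 of 10 myoblast, 1 of 10 fibroblast (Col3a1), 0 of 10 immune and 0 of 10 endothelial and adipocyte markers are in the gene table, which holds 5.81% of all protein-coding genes.

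YTHDF2 is a cytoplasmic protein that binds N6-methyladenosine (m6A) in RNA and recruits the machinery that shortens poly(A) tails. The 6 ligands act at the cell surface through receptors with kinase activity, or in the case of the semaphorin through neuropilins and plexins, and Egfr is itself such a kinase receptor. In muscle, HGF is known to activate satellite cells through its receptor Met, and FGF2 to keep myoblasts dividing and hold back their differentiation.

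With 1 library on each side, no difference can be set against replicate spread, and no test of a difference was made. The pileup is the scaled number of RIP fragments over a peak's summit, where 1 fragment counts 0.9, and the background is the scaled input signal that the peak caller expected there. The fold enrichment is the pileup plus 1 divided by the background plus 1. These scores are the authors'. Brackets after a fold hold an exact 95% Poisson interval of the RIP fragments, which covers counting error of the RIP library only.

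All 6 last-exon peaks of the 7 genes had their summit in a 3′ UTR. One 30-base site of each, the instance of the m6A consensus nearest to the summit, is shown to place these peaks in the transcripts. Capitals mark only that nearest instance of the consensus, called DRACH (A, G or T, then A or G, then A and C, then A, C or T); the Pdgfa and Pgf stretches hold another in lower case. Each sequence is the transcript strand of GRCm38.p6 from RefSeq, written with T.
Fgf2, chr3:37409817-37409846, plus strand: acttgtgttaacGAACCttcggagggaaat
Fgf7, chr2:126089877-126089906, plus strand: gtatgttagattTGACTatctgataatgaa
Pdgfa, chr5:138976690-138976719, minus strand: tccgtgggaactGAACAggtgggagatgcc
Pgf, chr12:85166937-85166966, minus strand: ggagatgggacaGGACAttcggctctggag
Sema3c, chr5:17728725-17728754, plus strand: taaaggaattagTAACAtgtagtttgtttt
Egfr, chr11:16916719-16916748, plus strand: tctgggcctagaGAACCctaagcctgcttg
The A of the motif lies at the summit in Pgf, 2 bases after it in Sema3c and 39 bases after it in Fgf7. In the other 3 genes the nearest motif lies before the summit, at -8 bases in Fgf2, -18 in Pdgfa and -45 in Egfr. A motif match is a description of the sequence, and no methylation was measured here.

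Both peaks that the authors' table assigns to coding sequence alone, 1 in Hgf and 1 in Egfr, straddle the end of an exon. Their whole sequences are shown on the plus strand of GRCm38.p6, with exon bases in capitals, because the exon takes up so little of each.
Hgf, chr5:16564871-16565056, exon 4 and intron 4: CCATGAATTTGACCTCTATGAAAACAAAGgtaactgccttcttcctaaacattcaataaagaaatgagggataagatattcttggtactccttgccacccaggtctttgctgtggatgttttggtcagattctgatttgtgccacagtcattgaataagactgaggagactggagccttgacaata
Egfr, chr11:16883572-16883757, exon 15 and intron 15: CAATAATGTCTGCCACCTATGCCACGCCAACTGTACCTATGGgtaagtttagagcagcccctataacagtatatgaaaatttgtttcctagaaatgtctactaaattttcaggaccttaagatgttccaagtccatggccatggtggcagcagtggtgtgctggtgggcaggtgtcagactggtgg
In Hgf 29 of the 186 bases (15.6%) are exonic and the summit lies 69 bases inside the intron. In Egfr 42 of 186 bases (22.6%) are exonic and the summit lies 20 bases inside the intron. Among all 312 peak and gene pairs that the table marks as coding sequence alone, 85 (27.2%) have their summit outside coding exons.

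A pair of further intron peaks have the highest fold of their genes, and are shown with every DRACH match in capitals on the plus strand of GRCm38.p6.
Hgf, chr5:16607422-16607689, intron 12: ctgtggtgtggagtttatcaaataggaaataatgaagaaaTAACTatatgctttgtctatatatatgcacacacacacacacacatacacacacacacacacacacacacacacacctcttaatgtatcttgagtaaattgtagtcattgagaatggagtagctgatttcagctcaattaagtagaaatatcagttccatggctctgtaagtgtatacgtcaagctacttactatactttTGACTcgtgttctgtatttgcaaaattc
Egfr, chr11:16884654-16884842, intron 15: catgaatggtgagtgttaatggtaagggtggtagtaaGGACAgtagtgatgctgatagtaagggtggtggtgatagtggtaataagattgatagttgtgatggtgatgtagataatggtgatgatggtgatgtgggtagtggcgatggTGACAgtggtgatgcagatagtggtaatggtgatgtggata
The Hgf sequence holds a run of CA repeats, and 33.2% of it is marked as repeat in the genome sequence. The Egfr sequence is rich in GGTGATG-like repeats, with 25.4% marked. How repeats affected the mapping of reads there was not tested.

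Among the ligands, Sema3c had the highest fold enrichment of the 25 peaks. Sema3c encodes a secreted class 3 semaphorin, a guidance factor for migrating cells and axons. The gene (ENSMUSG00000028780.13, chr5:17574281-17730268, plus strand) spans 156 kb with 18 exons. Its only peak, chr5:17728448-17728914, had a pileup of 24.3 in the RIP library against a background of 1.49 in input, a fold enrichment of 10.2 [6.84 to 14.6] from 27 fragments. The value ranked 14 among the 1541 peaks of the gene table and lay above 99.3% of all peaks. The summit stood 981 bases after the stop codon, 39.1% of the way along the 3′ UTR. From its value alone, this background was read as the mean input over a window of up to 10 kb. The input signal at the summit itself is not given.

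Fgf2 had the next highest fold among 3′ UTR peaks. It encodes basic fibroblast growth factor, a mitogen for myoblasts. The gene (ENSMUSG00000037225.13, chr3:37348346-37410108, plus strand) spans 61.8 kb with 3 exons. Its only peak, chr3:37409756-37409967, had a pileup of 41.4 in the RIP library and a background of 5 in input, a fold of 7.07 [5.22 to 9.37] from 46 fragments. The summit lay 5042 bases after the stop codon, at 94.9% of a 3′ UTR of 5311 bases and 269 bases before the annotated end. The peak lies within the gene body of Nudt6 on the opposite strand but on none of its exons, and the strand of the reads is not given.

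Fgf7, Pdgfa and Pgf had lower folds on higher input backgrounds. Fgf7 encodes keratinocyte growth factor, a ligand made by mesenchymal cells that acts on epithelial FGF receptors. The gene (ENSMUSG00000027208.14, chr2:126034658-126091185, plus strand) spans 56.5 kb with 4 exons. Its listed peak, chr2:126089481-126090219, crosses coding sequence, stop codon and 3′ UTR. The pileup there was 144.9 in the RIP library against a background of 49 in input, a fold of 2.92 [2.49 to 3.40] from 161 fragments, the most of the 25 peaks. The fold lay above only 16.1% of all peaks, but above 94.3% of those whose background was within a factor of 1.25, whose median was 2.23.

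Pdgfa encodes a chain of platelet-derived growth factor, which acts on mesenchymal cells through Pdgfra. The gene (ENSMUSG00000025856.15, chr5:138976014-138997370, minus strand) spans 21.4 kb with 6 exons. Its peak, chr5:138976575-138976813, had 117.9 in the RIP library and 43 in input, a fold of 2.70 [2.26 to 3.20] from 131 fragments, with the summit 530 bases (44.1%) into the 3′ UTR. Pgf encodes placental growth factor, a VEGF family ligand of Flt1. The gene (ENSMUSG00000004791.7, chr12:85166635-85177790, minus strand) spans 11.2 kb with 7 exons. Its peak, chr12:85166781-85167043, had 39.6 in the RIP library and 11 in input, a fold of 3.38 [2.48 to 4.51] from 44 fragments, with the summit 459 bases (59.5%) into the 3′ UTR. Against peaks of like background, Pdgfa lay at the 75.3th percentile and Pgf at the 48.8th, so the Pgf value is near the middle of its class.

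Egfr, the receptor for epidermal growth factor and its relatives, had 3 peaks. The gene (ENSMUSG00000020122.16, chr11:16752203-16918158, plus strand) spans 166 kb with 28 exons. The 3′ UTR peak, chr11:16916701-16916890, had 51.3 in the RIP library and 13 in input, a fold of 3.74 [2.85 to 4.82] from 57 fragments, with the summit 4923 bases after the stop codon and 78.1% along the UTR. The exon 15 edge peak had 12.6 in the RIP library and 1.45 in input, a fold of 5.55 [3.22 to 9.03] from 14 fragments. The peak inside intron 15, which is not in the authors' table, had 18.9 in the RIP library and 1.51 in input, a fold of 7.94 [5.07 to 11.9] from 21 fragments. It begins 1041 bases after exon 15 and 2299 bases before the last exon of the shorter transcript Egfr-202, which has 16 exons. Both of these backgrounds were read, from their values alone, as means over a 10 kb window. By the authors' q-value the 3′ UTR peak came first of the 3, with a −log10 of 11.3 against 10.3 for the intron peak. The interval of the edge peak overlaps those of the other 2, and the interval of the intron peak lies wholly above that of the 3′ UTR peak.

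**Figure D1:**
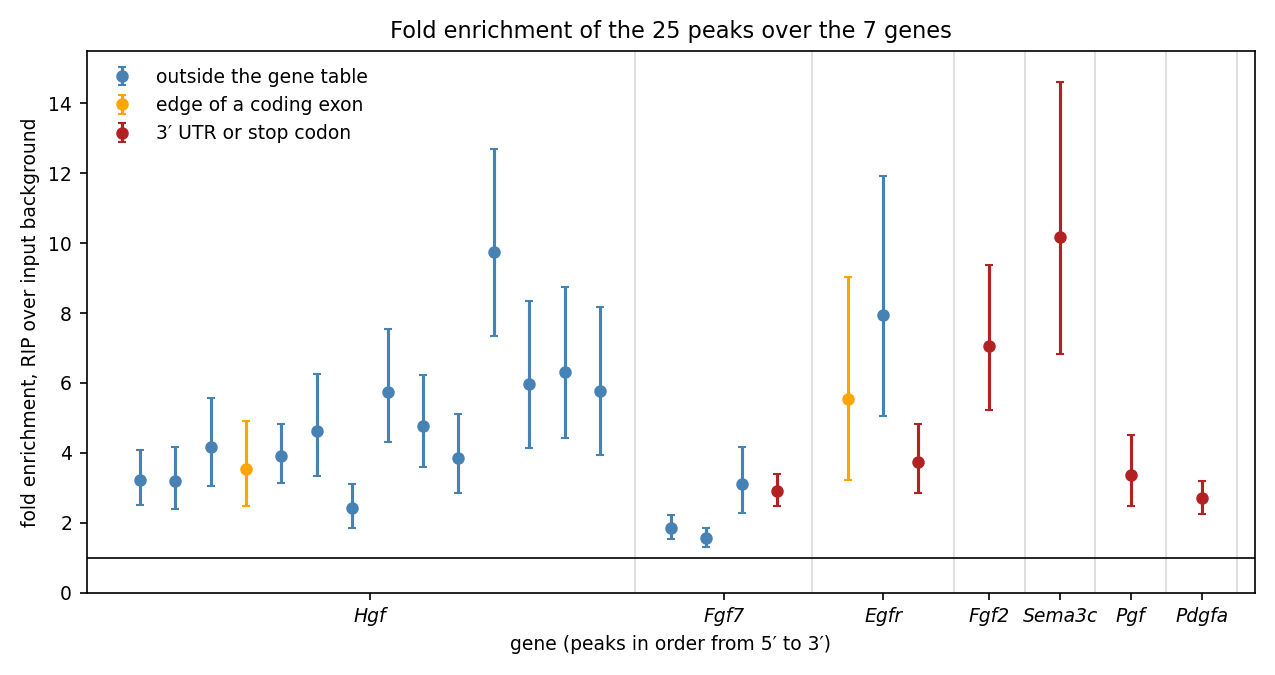
Fold enrichment of RIP over input background (y axis) for the 25 peaks, in order along each gene (x axis), with exact 95% Poisson intervals and a line at 1. Red marks 3′ UTR or stop codon peaks, orange coding exon edges and blue peaks outside the gene table; Sema3c at 10.2 and the Hgf peak at 9.74 stand highest, while the first pair of Fgf7 peaks lie at 1.86 and 1.57.

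The 3′ UTR summits sat at different distances from the stop codon. As a share of the UTR they ran from 17.9% in Fgf7 to 94.9% in Fgf2, with a median of 51.8% over the 6 peaks. Over the 761 peaks of the series with a summit in a 3′ UTR the median was 40.6%, and 312 (41.0%) lay nearer to the end of the UTR than to the stop codon, as did 3 of the 6. No peak of the 7 genes touched a 5′ UTR or a start codon.

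**Figure D2:**
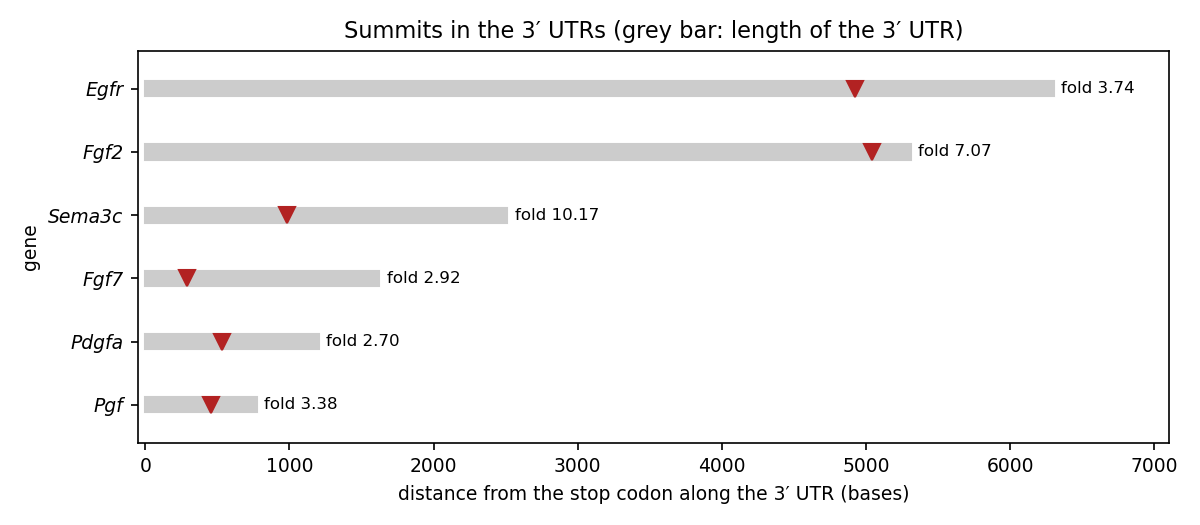
Position of the 6 summits (red triangles) along the 3′ UTRs (grey bars, to scale, in bases from the stop codon), with the fold enrichment at the right. The Fgf2 summit lies near the end of its UTR and the Fgf7 summit near the stop codon.

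Hgf differed from the other genes in having many peaks and none in its 3′ UTR. HGF, hepatocyte growth factor, is the ligand of Met. The gene (ENSMUSG00000028864.7, chr5:16553495-16620152, plus strand) spans 66.7 kb with 19 exons. It held 14 of the 25 peaks, and 64 of 21951 protein-coding genes (0.292%) held as many or more. Peaks ran 2.10 per 10 kb, against 0.0641 in Sema3c to 0.896 in Pgf. On the reference transcript Hgf-204 all 14 summits lay in introns, spread over 8 of the 18. Of these peaks 3, at 13.8, 15.7 and 19.2 kb from the gene's start, touch no exon of a coding Hgf transcript but overlap exons of the annotated retained-intron transcripts Hgf-202, Hgf-205 or Hgf-206. The last peak ended 7281 bases before the gene's end. The 14 peaks share 1 gene and 1 library and are not replicates.

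The first 8 Hgf peaks lie between 1.29 and 21.0 kb from the gene's start. Their RIP pileups were 60.3, 46.8, 39.6, 30.6, 77.4, 36, 52.2 and 45, against input backgrounds of 18, 14, 8.74, 7.91, 19, 7, 21 and 7. Folds ran from 2.42 [1.85 to 3.11] to 5.75 [4.30 to 7.54] with a median of 3.73. The exon 4 edge peak, the only one in the authors' table, had a fold of 3.55 [2.49 to 4.91] from 34 fragments. A stretch of 23.9 kb then held no peak.

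The other 6 Hgf peaks lie between 45.1 and 59.3 kb. Their RIP pileups were 46.8, 41.4, 47.7, 28.8, 30.6 and 26.1, against input backgrounds of 9, 10, 4, 4, 4 and 3.70. Folds ran from 3.85 [2.85 to 5.11] to 9.74 [7.35 to 12.7] with a median of 5.86. The strongest, in intron 12 with 53 fragments, lay above 99.1% of peaks of like background, whose median fold was 4.79. Its interval lay wholly above that of 9 of the other 13 Hgf peaks. The median input background was 11.4 over the first 8 peaks and 4 over the last 6, so the rise in fold along the gene goes with a fall in background, and its part in the result was not tested. The peak at 19.2 kb, in intron 6, overlaps an exon of Gm43489, a gene on the same strand, and counts for Hgf only with that reservation.

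**Figure D3:**
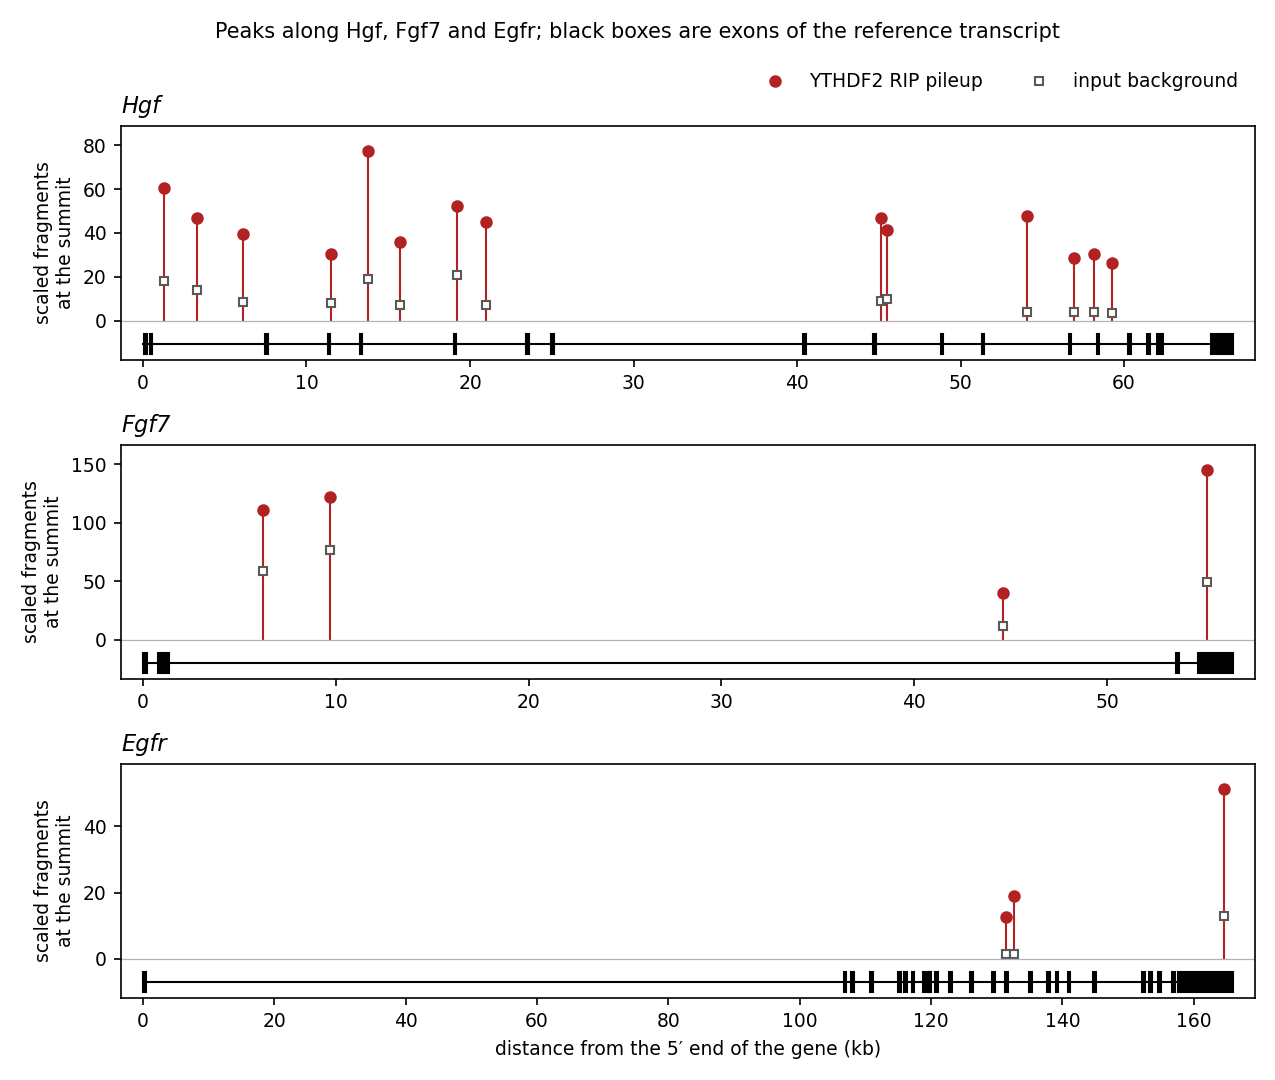
RIP pileup at the summit (filled red circles) and the input background expected there (open squares), in scaled fragments, along Hgf, Fgf7 and Egfr. The x axis is the distance from the 5′ end of the gene in kb. Black boxes are exons, narrow ones widened to be visible. On the transcript drawn, Hgf peaks lie among its introns with none at the 3′ end, whereas Fgf7 and Egfr each have a peak in the last exon.

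Fgf7 had 3 further peaks, all in intron 2 and all within introns of Fam227b on the opposite strand. At chr2:126040746-126041017 the pileup was 110.7 in the RIP library against 59.0 in input, a fold of 1.86 [1.55 to 2.22]. At chr2:126044221-126044456 it was 121.5 against 77.0, a fold of 1.57 [1.32 to 1.86]. At chr2:126079202-126079576 it was 39.6 against 12, a fold of 3.12 [2.29 to 4.17]. The first pair lay among the lowest folds of the series, above 1.81% and 0.378% of all peaks, with strong signal in both libraries. Since the listed Fgf7 peak also lies in an intron of Fam227b, the gene of origin of all 4 peaks cannot be told apart without the strand.

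By position, 14 of the 25 peaks (56.0%, Wilson 95% interval 37.1 to 73.3) lay in introns with no exon of any transcript, against 72.9% (72.0 to 73.8) of all 9271 peaks. Without Hgf, 4 of 11 peaks (36.4%, 15.2 to 64.6) did. The choice of genes lowers both shares, because each of the 8 listed peaks touches an exon. The 9271 peaks also include peaks outside genes, which the 25 cannot. In the authors' table were 8 of the 25 (32.0%, 17.2 to 51.6), against 16.6% of all peaks, a share that the choice of genes raises. Counted by summit on each gene's main transcript, 19 of the 25 lay in introns and 6 in last exons.

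By strength, the 25 peaks had a median fold of 3.92 (quartiles 3.19 and 5.76) against 4.40 (3.34 and 5.64) for all peaks, with a median background of 9 against 5 and a median of 46 against 29 fragments. The choice of genes raises the share of listed peaks, and over the series the peaks of the gene table had a median fold of 3.25. The 8 listed peaks had a median of 3.64, and the other 17 a median of 4.17. A fold of 4 or more was met by 12 of the 25, against 59.6% of all peaks. Of the 7 genes 3 met it with a listed peak, namely Sema3c, Fgf2 and Egfr, the last only by its exon 15 edge peak of 14 fragments. Of all 21951 protein-coding genes, 5.81% had a peak in the gene table and 2.16% had one of fold 4 or more. These shares stand beside the 7 of 7 and 3 of 7 only for scale, because the table chose the genes. The same holds for gene bodies, where Hgf, Fgf7 and Egfr had 2 or more peaks, against 7.40% of protein-coding genes. The weakest of the 25 by the authors' q-value was the second Fgf7 intron peak, at a −log10 of 2.91, where the lowest value in the whole list was 1.43. Set against peaks of like background, 17 of the 25 were above the median of their class, among them 11 of the 14 in Hgf. Of the 8 listed peaks 5 were. Those that were not are the Pgf peak, the listed Hgf peak (36.7th percentile) and the Egfr edge peak (34.4th).

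**Figure D4:**
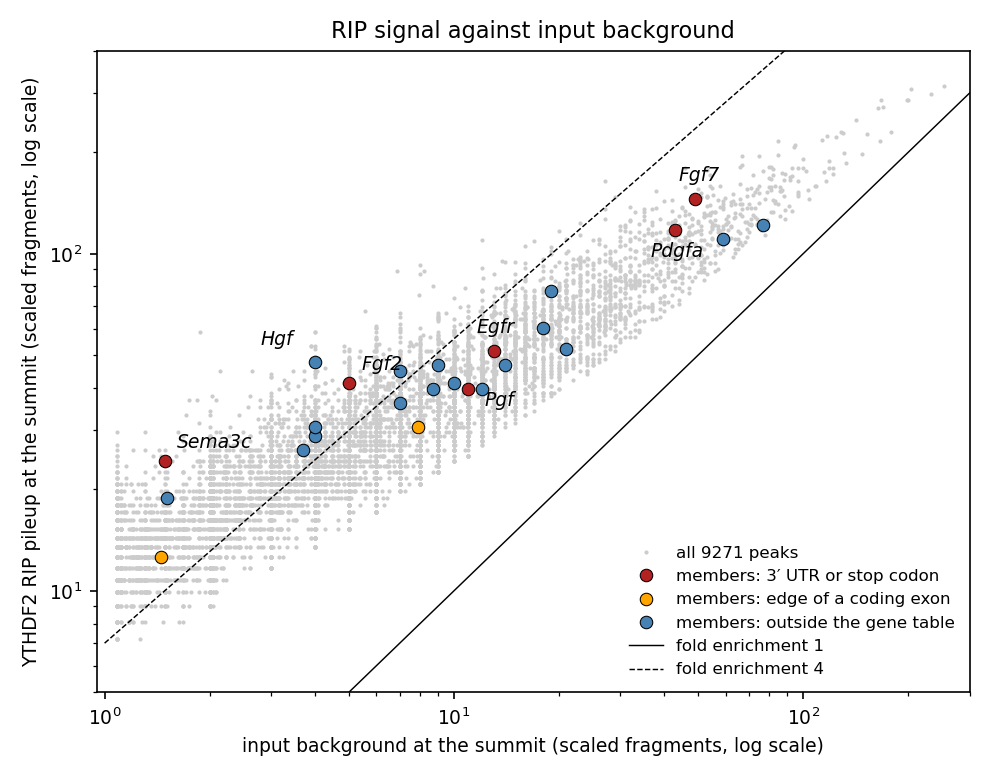
YTHDF2 RIP pileup at the summit (y axis) against the input background expected there (x axis), both in scaled fragments on log scales. Points are all 9271 peaks (grey) and the 25 peaks of the 7 genes (coloured by position). Lines mark fold enrichments of 1 and 4; Sema3c, Fgf2 and the strongest Hgf peak stand above the line for 4, and Fgf7 and Pdgfa below it at high input.

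The m6A consensus was counted on each gene's strand, with overlapping matches kept. All 25 peaks held a DRACH match, as did 96.4% of gene-body peaks of the series. DRACH ran 21.3 per kb in the 25 peaks against 20.4 per kb in windows 1 peak width to either side, a ratio of 1.04 (0.854 to 1.27, exact binomial counting interval). Over all gene-body peaks that lie on 1 strand it ran 17.7 against 19.4 per kb, a ratio of 0.913 (0.902 to 0.923). GGACH, the part of DRACH that begins with GG, was in 15 of the 25 (60.0%) against 43.5% of all. Its density was 3.03 against 1.99 per kb, a ratio of 1.52 (0.831 to 2.73), so neither ratio of the 25 peaks had a counting interval that left out 1. Over all gene-body peaks GGACH ran 2.29 against 2.05 per kb, a ratio of 1.12 (1.08 to 1.16), above 1 where that of DRACH was below it.

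A pair of motifs of mRNA turnover were searched in the same way in the 3′ UTR peaks. The AU-rich pentamer ATTTA was in 4 of the 6, those of Sema3c, Fgf2, Fgf7 and Egfr, against 301 of 962 (31.3%) of the series' 3′ UTR peaks. These shares take no account of peak width. Of the 6, Fgf7 (739 bp) and Sema3c (467 bp) are the widest, and Fgf2 (212 bp) and Egfr (190 bp) the narrowest. The part of width was not tested. The Pumilio motif TGTANATA was in 0 of the 6 against 39 of 962 (4.05%). The base composition of the peaks differed along with this, from 30.2% GC in Sema3c to 56.5% in Pdgfa and 58.6% in Pgf, the pair with no ATTTA.

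Receptors and further ligands of these pathways were taken from 11 lists, which together hold 123 protein-coding genes besides the 7. The lists are those of FGF ligands, FGF receptors and co-receptors, HGF with its activators and receptor, PDGF and VEGF ligands and their receptors, class 3 semaphorins, neuropilins and plexins, EGF family ligands, ERBB receptors, kinase adaptors with feedback regulators, and heparan sulphate proteoglycans. Only Sos2, which activates Ras behind these receptors, and Gpc6, a surface glypican, were in the gene table, 2 of 123 (1.63%) against 5.81% of all protein-coding genes. Leaving out the 7, which were chosen from that table, lowers this share, so it is given only for scale. Over gene bodies 24 of 123 (19.5%) had a peak, against 15.0%, and 17 (13.8%) had 2 or more, against 7.40%, again with the 7 left out. The listed genes with a gene-body peak had a median length of 131.4 kb, those without 29.1 kb and all protein-coding genes 17.4 kb, and the part of gene length in these shares was not tested.

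Of the main receptors of the ligands, Met for HGF, Fgfr1 for FGF2, Flt1 for PGF and Pdgfra for PDGF-A had no peak over the gene. Fgfr2, a receptor for FGF7 and FGF10, had 11, with a highest fold of 6.59 [4.11 to 10.1], all outside the gene table. They were credited to Fgfr2 only by position within a gene model of 2961 kb, and other genes at these peaks are not given here. Frs2, the docking protein of FGF receptors, had 5 peaks with a highest fold of 5.08. Pdgfrb, a receptor for PDGF-B, had 1 at 2.48 [1.88 to 3.22]. The receptor-like gene Pdgfrl had 1 at 6.53 [3.79 to 10.6], from 14 fragments on a background of 1.08, the lowest of the series. Nrp1, a co-receptor for semaphorins and VEGF ligands, had 2 peaks, the highest at 5.24 [3.55 to 7.48]. Among 9 PDGF and VEGF ligands, Pdgfc with 2 peaks and Vegfd with 1 joined Pdgfa and Pgf. Among 22 FGF ligands, Fgf10 was the only other with peaks, 12 of them and none in the gene table, the highest at 11.7 [8.40 to 16.0] with a pileup of 34.2 in the RIP library and 2.00 in input. Of the other semaphorins, Sema3a had 6 peaks and Sema3e 3, the highest of Sema3e at 10.1 [6.56 to 14.9]. Of the EGF family, Nrg1 had 4 and Nrg4 1, and Egfr was the only one of 4 ERBB receptors with a peak.

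Beyond the receptors, adaptor and matrix genes also had peaks, and in each of the 12 genes the strongest one lay in an intron. Of 20 adaptors and regulators 7 had gene-body peaks, against 15.0% of all protein-coding genes, led by Sos2 with 7, Gab2, a docking protein, with 5, the ubiquitin ligase Cblb and the Ras pathway inhibitor Spred1 with 3 each, and Errfi1, an EGFR inhibitor, with 2. Of 21 proteoglycans and FGF-binding factors 5 did, against the same 15.0%, namely Gpc6 with 14, the heparan sulphate polymerase Ext1 with 7, the sulphotransferase Hs2st1 with 3, the syndecan Sdc2 with 2 and the sulphatase Sulf1 with 1. The highest of these folds was 13.3 [9.32 to 18.6] in Gab2. The lengths of these genes differed widely: Gab2 spans 227 kb, Ext1 282 kb and Gpc6 1051 kb, but Errfi1 only 15.0 kb. Gpc6 held its 14 peaks in a far longer gene than Hgf at 66.7 kb.

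For each gene, the gene of the table whose strongest listed peak marks the same element and is most like it in pileup and background was Purg for Hgf, Stard7 for Fgf2, Sbds for Fgf7, Tmem65 for Pdgfa, Ptcd2 for Pgf, Zfp748 for Sema3c and Dimt1 for Egfr. Likeness was the distance in log2 pileup and log2 background between 1 peak of each gene, and ran from 0.0481 for Stard7 to 0.116 for Sbds.

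Of the authors' deposited table of KEGG pathways, 4 of 219 pathways have an FDR under 0.05, and 3 of these hold some of the 7 genes. Among all 219 pathways of the authors' deposited table, 29 hold some of them. In the authors' deposited table Pathways in cancer holds all but Sema3c, with 33 of 313 genes against 18.2 expected (FDR 0.0358). Regulation of actin cytoskeleton holds Fgf2, Fgf7, Pdgfa and Egfr, with 26 of 205 against 11.9 expected (FDR 0.0138) in the authors' deposited table. Focal adhesion holds Hgf, Pdgfa, Pgf and Egfr, with 23 of 191 against 11.1 (FDR 0.0358) in the authors' deposited table. The PI3K-Akt pathway, with the same 6 genes, has 30 of 318 against 18.5 (FDR 0.0719), and ErbB signalling 9 of 82 against 4.77 (FDR 0.257), in the authors' deposited table. In the authors' deposited table of GO terms, 381 of 7030 terms have an FDR under 0.05, and 219 of these hold some of the 7 genes. Among all 7030 terms of the authors' deposited table, 1090 hold some of them. In the authors' deposited table of GO terms, growth factor activity has 13 of 134 genes against 8.14 expected (FDR 0.349), and receptor ligand activity 22 of 363 against 22.0 (FDR 0.777). The term extracellular region, with the 6 ligands, has 62 of 1640 against 101 expected (FDR 1) in the authors' deposited table. The 7 genes are themselves part of these counts.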

How the data were processed

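RNA of C2C12 myotubes was analysed as 1 YTHDF2 RIP library over 1 input library. The series' design text names Bowtie for alignment to mm10 and MACS for peak calling. Other tools listed, per the submitters' processing notes, are DiffBind, deepTools, HOMER, Picard, Trim Galore and FastQC, without versions. The authors deposited 1 peak list, which per the file headers holds the pileup signal at each summit, the fold enrichment (a ratio to the input background) and the −log10 p-value and q-value. The authors' deposited tables of KEGG pathways and GO terms give a count of annotated and of peak genes, an expected number (used here as a score), a p-value and its FDR. The depth of both libraries is unknown.

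Every pileup was a whole multiple of 0.9 (tolerance 1e-06), read as RIP fragments. The background was solved from pileup and fold, each with 1 added. With it, a Poisson tail matched the deposited −log10 p-value to 0.01 at 100% of peaks. Counting intervals treat the background as known, and PCR copies as if independent. Overlap meant 1 bp or more with GENCODE M21 genes on GRCm38, the build of mm10. Sequences are RefSeq GRCm38.p6. Peaks of like background are within a factor of 1.25. Python 3.11.15, pandas 2.3.3, SciPy 1.17.1 and NumPy 2.4.6 were used, and the counting steps were tested on simulated data.

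The members and gene lists were chosen with earlier results of these data known. Genes named outside the 7 are those of each list with a peak in the gene table if 5 or fewer, otherwise the 5 of highest fold, the same by number of gene-body peaks, and the most alike gene of the table for each of the 7. Receptors named as having no peak, and the genes of the GO terms, were added after the values were seen. Alternatives were a fold of 4, the median fold, a q-value of 1e-05, 2 peaks per gene, other overlap rules and other motif windows.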

Additional observations from a re-analysis of the deposited data

How the results depend on the processing

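No paired analysis was possible because each side has 1 library, and no library could be left out. Of the alternative values, 61 stayed within their limits, 31 moved and 0 reversed. With a fold of 4 or more, or at least the median fold, 3 of the 7 genes and 3 of their 8 listed peaks stayed, and 1 gene had 2 or more listed peaks. The 25 gene-body peaks became 12 at a fold of 4, 11 at the median fold and 11 when an exon had to be touched. Chosen after seeing the data, leaving out Hgf moved the intron share to 36.4% from 56.0%, and the gene table alone lowered the highest Hgf fold to 3.55 from 9.74. Without the added 1, the highest fold became 16.3 in Sema3c and 12.5 in Egfr, and by q-value the Egfr peak was that of fold 3.74. Counts over gene bodies instead of the gene table were 2 in the FGF receptor list, Fgfr2 and Frs2, and 4 PDGF and VEGF ligands. The list of their receptors gave 2, with the receptor-like Pdgfrl among them. There were 3 semaphorins, 1 neuropilin or plexin, 2 EGF ligands and 7 adaptors or regulators. The proteoglycan list gave 5, its enzymes included, and the muscle and myoblast marker lists 2 each. At a fold of 4 the counts became 1 FGF ligand, 0 in the HGF list, 0 PDGF and VEGF ligands, 0 muscle and 0 fibroblast markers, and at a q-value of 1e-05 the last pair was also 0 and 0. The motif ratio became 1.52 with GGACH. The counts moved because each rule admits fewer or more peaks; for the motif ratio the cause was not tested.

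Depth limits the single peaks: the Egfr exon edge peak rests on 14 fragments, Sema3c on 27, and neither library total is known. Backgrounds at 6 of the 25 peaks were read, from their values alone, as means over windows of up to 10 kb. The IgG library was not analysed here, and expression of the genes was not measured apart from input. The strand of the reads is not given, so gene assignment in Fgf7 and Fgf2 rests on position. That of 1 Hgf peak also does, and there Gm43489 lies on the same strand.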

Other observations

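Besides 5 of the 7 genes, the GO term growth factor activity holds other genes in the authors' deposited table. By highest fold in the gene table these included Rabep1 at 8.11 [5.49 to 11.6], Tgfb2, a TGF-β ligand, at 4.80, and Igf1, insulin-like growth factor 1, at 4.18. Below them were Inhba, an activin subunit, at 3.22, Ogn, an extracellular matrix proteoglycan, at 3.05, Kitl, the ligand of Kit, at 2.81, and Gmfb at 2.06. Brackets hold exact 95% Poisson counting intervals. Rabep1 and Gmfb stand there by the authors' annotation. The genes named here lay on both sides of the median of the gene table, 3.25, and were named after their values were seen. The term chemoattractant activity holds Hgf, Fgf2, Fgf7 and Hmgb2, 4 of 17 genes against 1.03 expected (FDR 0.226), in the authors' deposited table.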
